A study of Mus musculus with 12 samples.

Results

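The forkhead (Fox), Sox and T-box (Tbx) transcription factors were followed across 4 stromal populations sorted from mouse mammary tumours. Members were taken by name: every protein-coding gene whose symbol is Fox with a letter from a to s and a number, Sox with a number, or Tbx with a number. This gave 76 members of 55487 genes, 44 forkhead, 19 Sox and 13 T-box, and no measured value entered the choice. Relatives with other names, such as Mga and Tbr1, are not members.

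Each family is named for its DNA-binding domain: the winged helix of forkhead proteins, the HMG box that Sox proteins share with SRY, and the T-box first described in Brachyury. Their members are known for setting cell identity in development, and several keep that role in adult stroma, vessel wall, endothelium or glandular epithelium. Some members are known mainly from particular cell types, so their RNA can hint at the cells in a sorted sample. Others act in several cell types or are broadly expressed, and bulk levels alone do not show the source.

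The cells came from tumours of 3 untreated FVB MMTV-PyMT mice, 10 weeks old, whose mammary epithelium carries the polyoma middle T oncogene under the promoter of the mouse mammary tumour virus. All sorted cells were alive, stained for PDGFRb and lacked CD45, CD31 and EPCAM. The icaf gate was Ly6C+. The vcaf gate was Ly6C- CD146+ PDGFRa-. The m2cafneg and m2cafpos gates were Ly6C- CD146- PDGFRa+, without and with NCAM. Each population gave 1 library per mouse (mice 27, 30 and 31), 12 in all, and the series compares the 4 populations. No healthy gland or other control tissue is among them.

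Libraries held 43898839 to 55363203 reads assigned to genes, given as CPM (counts per 1000000 assigned reads). The genes of the gates followed the labels: Pdgfra stood at 358 to 586 CPM in icaf, m2cafneg and m2cafpos and at 4.44 to 8.49 CPM in vcaf, and Ncam1 stood at 564 to 604 CPM in m2cafpos and at 26.1 to 37.2 CPM in m2cafneg. The summed CPM of 15 pericyte markers was 37164 to 59353 in vcaf and 178 to 622 in the other populations. Although EPCAM+ cells were gated out, Epcam was read in every library, from 24.5 CPM in m2cafpos of mouse 30 to 739 CPM in vcaf of mouse 31. The summed CPM of 22 epithelial markers was 2191 ± 1222 in icaf, 10238 ± 4061 in m2cafneg, 2155 ± 1366 in m2cafpos and 13940 ± 5167 in vcaf (SD, n = 3 for each). None of the 22 was at 0 throughout a population. A sum of 16 macrophage markers, with none at 0, was also higher in m2cafneg (627 to 1009 CPM) and vcaf (584 to 1379 CPM) than in icaf and m2cafpos (99.4 to 242 CPM), although CD45+ cells were gated out. In bulk samples such as these, fewer cells of a type and less RNA per cell cannot be told apart.

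CPM also carried a shift between populations. Over the 15456 genes tested, which had at least 1 CPM in at least 3 libraries, the median log2 fold change of vcaf against the other 3 populations was 0.38, and it was 0.02 after median-of-ratios scaling. For m2cafpos against m2cafneg it was -0.23, and 0.02 after scaling. For these comparisons most fold changes of members are therefore followed by their value after scaling. All fold changes are differences of log2(CPM + 1), which understates those of members near or below 1 CPM.

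Of the 76 members, 38 passed the filter (18 forkhead, 13 Sox and 7 T-box), a share of 50% against 60.7% of all protein-coding genes. Of the other 38, 33 had some reads and 5 had none in any library (Foxb2, Foxe3, Foxi2, Sox3 and Tbx22). Sox11, Tbx20 and Foxf1 reached 1 CPM in vcaf alone and so passed only through the population where they were high. Summed over its members, the forkhead family stood at 363 ± 49.1 CPM in icaf, 491 ± 81.5 in m2cafneg, 421 ± 65.6 in m2cafpos and 582 ± 63.9 in vcaf. The Sox sum was 99.4 ± 14.4, 278 ± 45.3, 101 ± 15.4 and 405 ± 30.7 CPM in the same order. The T-box sum was 121 ± 6.07, 133 ± 23.2, 148 ± 15.2 and 182 ± 39.3 CPM (SD, n = 3 for each).

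Per kilobase of exon, the scale on which genes can be set against each other, the leading member changed from population to population. Tbx15 led in icaf at 16.6 CPM per kb, Foxi1 in m2cafneg at 38.3, and Foxs1 in m2cafpos at 15.7 and in vcaf at 56.9. Sox10 was the second in m2cafneg at 23.4 CPM per kb.

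The sequences shown first are stretches just before the transcription start of 4 members that were higher in vcaf, printed to show whether the 3 families' own binding letters lie there. RefSeq promoter entries (GRCm38.p6) were matched for 50 of the 76 members. The 250 bases before each start were searched on both strands for TGTTTAC (a forkhead core), ACAATG (a Sox core) and GGTGTG (one arm of a T-box site), none of which overlaps another in these stretches. Capitals mark the matches, and each sequence runs 5′ to 3′ on the gene's strand.
Sox5 (chr6:143947107-143947356, minus strand): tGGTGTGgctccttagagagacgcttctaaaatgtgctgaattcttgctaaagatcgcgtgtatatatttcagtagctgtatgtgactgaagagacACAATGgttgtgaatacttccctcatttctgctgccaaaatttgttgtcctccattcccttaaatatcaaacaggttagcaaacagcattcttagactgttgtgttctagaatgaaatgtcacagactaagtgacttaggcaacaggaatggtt
Sox12 (chr2:152398047-152398296, minus strand): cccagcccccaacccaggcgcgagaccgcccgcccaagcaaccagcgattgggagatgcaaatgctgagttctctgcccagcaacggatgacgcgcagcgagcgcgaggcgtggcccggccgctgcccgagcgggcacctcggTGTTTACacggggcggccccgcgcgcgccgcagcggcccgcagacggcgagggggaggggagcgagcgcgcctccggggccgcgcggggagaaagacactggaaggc
Foxp4 (chr17:47924633-47924882, minus strand): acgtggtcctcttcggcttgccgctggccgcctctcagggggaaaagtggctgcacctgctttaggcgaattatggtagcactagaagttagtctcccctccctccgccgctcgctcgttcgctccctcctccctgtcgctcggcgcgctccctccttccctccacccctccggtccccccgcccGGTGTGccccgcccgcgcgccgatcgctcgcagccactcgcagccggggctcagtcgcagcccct
Tbx20 (chr9:24774304-24774553, minus strand): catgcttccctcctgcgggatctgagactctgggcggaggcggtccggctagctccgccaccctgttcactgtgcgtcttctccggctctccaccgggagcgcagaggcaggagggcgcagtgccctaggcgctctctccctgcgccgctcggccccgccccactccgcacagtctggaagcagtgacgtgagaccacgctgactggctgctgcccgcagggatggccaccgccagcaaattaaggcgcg
The Sox5 stretch lies inside the gene as GENCODE M21 draws it (chr6:143828425-144781977), so it stands before 1 start among several possible. It held ACAATG from 154 bases and GGTGTG from 249 bases before that start. Sox12 held TGTTTAC from 107 bases and Foxp4 held GGTGTG from 65 bases before the start, and the Tbx20 stretch held none of the 3. Among all 32851 promoters the shares with a match were 3.17% for TGTTTAC, 10.7% for ACAATG and 16.3% for GGTGTG. Among the 50 members they were 2, 5 and 7 promoters. A match is a run of letters and not a known binding site.

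Against the average of the other 3 populations, most members that passed the filter were higher in vcaf. The test called 27 of the 38 higher and 4 lower, where it called 53.3% of all genes higher and 14.2% lower. After median-of-ratios scaling, 20 members were higher and 5 lower, against 23.6% and 24.6% of all genes. By family the calls were 10 higher and 2 lower of 18 forkhead members, 13 of 13 Sox members higher and 4 higher and 2 lower of 7 T-box members. After scaling they were 6 and 3 for forkhead members, 11 higher for Sox members and 3 and 2 for T-box members. Against m2cafneg alone, 4 of 13 Sox members were higher in vcaf and 0 lower, or 2 higher after scaling. For forkhead members the counts there were 6 and 1 (3 and 2 after scaling), and for T-box members 3 and 1 (also 3 and 1 after scaling). Of all genes, 26.6% were higher and 11.3% lower in vcaf than in m2cafneg. After scaling, 1551 of the 15456 genes tested were higher there and 2379 lower. Sox8 had its highest mean in m2cafneg. Without Sox11, Tbx20 and Foxf1, which passed the filter through vcaf alone, 24 of 35 were higher, 12 of them Sox members, and after scaling 17, of them 10 Sox. With the log2 sum of the epithelial markers as a term in the model, 13 of 38 were higher and 4 lower (10 of 35 higher without those 3), against 23.6% and 8.49% of all genes. In that model the higher members were 5 of 13 Sox (Sox4, Sox5, Sox9, Sox11 and Sox12), 5 of 18 forkhead and 3 of 7 T-box members. The median log2 fold change of the 38 members was 0.94, against 0.38 for all genes. The members called lower were Foxp2, Foxn3, Tbx5 and Tbx15, joined after scaling by Foxp1.

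**Figure D1:**
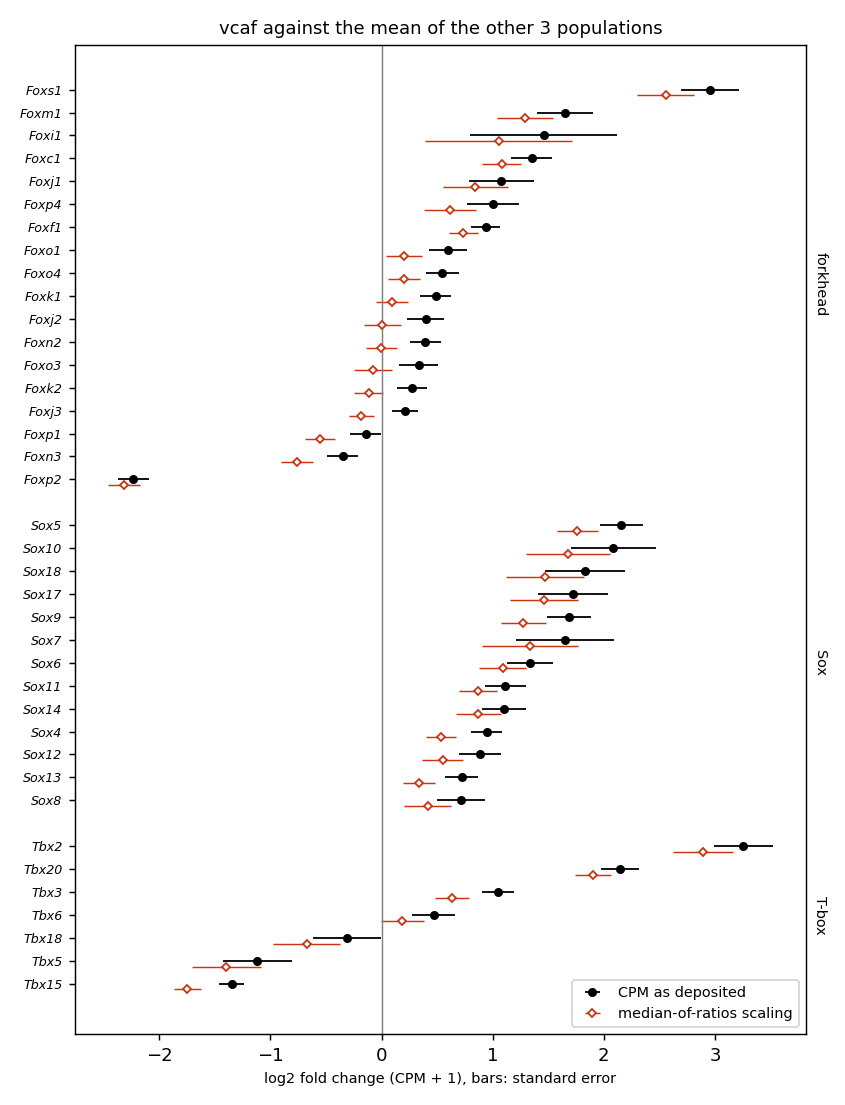
Log2 fold change on the log2(CPM + 1) scale (x axis) of each of the 38 members tested, in vcaf relative to the average of the other 3 populations. Filled circles are the CPM as deposited, open diamonds the values after median-of-ratios scaling, and bars the standard error. Every Sox member lies to the right of 0, though 8 of the 13 calls were lost with the epithelial sum as a term. Against m2cafneg alone 4 of the 13 were called higher, where 26.6% of all genes were. T-box members run from -1.35 for Tbx15 to 3.26 for Tbx2.

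Among forkhead members the largest log2 fold change in vcaf on the log2(CPM + 1) scale was that of Foxs1, a gene known from pericytes and perivascular mesenchyme (chr2:152931898-152933208). It stood at 2.22, 1.18 and 2.65 CPM in icaf, at 22.2, 7.20 and 14.6 in m2cafneg, at 24.7, 18.9 and 18.2 in m2cafpos and at 77.1, 83.6 and 63.1 in vcaf (mice 27, 30 and 31). The vcaf and icaf libraries overlapped with no other population, while m2cafneg and m2cafpos overlapped. The log2 fold change was 2.95 (SE 0.26) in vcaf against the other populations (adjusted p = 1.23e-06 by limma), 2.56 after scaling. It was -2.57 (SE 0.27) in icaf against the m2caf populations (adjusted p = 2.53e-05). Foxs1 differed between m2cafpos and m2cafneg by 0.58 (SE 0.32), which did not pass the test (adjusted p = 0.196).

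Further mesenchymal forkheads are encoded in a pair of gene clusters, and vcaf held most of their reads. On chromosome 8, Foxf1, a target of Hedgehog signals in visceral mesenchyme, lies 28.0 kb from Foxc2, which is known from blood and lymph vessel development, and Foxc2 lies 9.04 kb from Foxl1, known from the mesenchyme under the gut epithelium. Foxf1 stood at 1.84, 1.42 and 1.29 CPM in vcaf and at or below 0.765 CPM in each other library. Foxl1 had 208 of its 216 reads in vcaf and Foxc2 169 of 198, and neither passed the filter.

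On chromosome 13, Foxf2, a forkhead of brain pericytes, lies 175 kb from Foxc1, its neighbour and a partner of Foxc2 in vessel development. Foxf2 had 145 of its 181 reads in vcaf and fell below the filter. Foxc1 stood at 0.570, 0.314 and 0.416 CPM in icaf, at 1.5, 1.39 and 2.55 in m2cafneg, at 0.506, 0.297 and 0.547 in m2cafpos and at 3.16, 5.34 and 2.59 in vcaf. The vcaf libraries were highest, narrowly above the highest m2cafneg library, and icaf and m2cafpos overlapped. Its log2 fold change in vcaf was 1.35 (SE 0.18, adjusted p = 6.06e-05 by limma), 1.08 after scaling.

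Foxm1, which drives genes of the late cell cycle, stood at 5.13, 1.87 and 2.26 CPM in icaf, at 3.48, 2.23 and 2.56 in m2cafneg, at 4.10, 1.48 and 2.44 in m2cafpos and at 12, 8.93 and 11.1 in vcaf. All vcaf libraries lay above all others, and the other 3 populations overlapped. In vcaf the log2 fold change was 1.65 (SE 0.25, adjusted p = 0.000142 by limma), 1.29 after scaling. Of 18 FOXM1 target genes, 16 were higher in vcaf (12 higher and 1 lower after scaling), with a median of 1.32, where 53.3% of all genes were higher (23.6% after scaling). With the epithelial sum as a term, 4 of the 18 were higher (23.6% of all genes) and the median was 0.73. Foxm1 itself kept its call at 1.53. Cenpa, a centromere histone, had means of 12.3 to 14.8 CPM in the other populations and of 41.9 ± 9.58 in vcaf (SD, n = 3) (log2 fold change 1.57, adjusted p = 0.000211). Cks2, Nek2 and Bub1, which act in mitosis, were higher by 1.29, 1.44 and 1.47, and with that term Bub1 lost its call at 0.93.

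FoxO members are held outside the nucleus by insulin and growth factor signals and otherwise turn on stress, quiescence and atrophy genes. Here they did not share an order of populations. Foxo3 stood at 34.6, 37.2 and 57.9 CPM in icaf, at 67.4, 79.9 and 91.6 in m2cafneg, at 52.2, 52.5 and 75.3 in m2cafpos and at 64.1, 93.3 and 66.7 in vcaf. Its icaf libraries were lowest in each mouse, although icaf and m2cafpos overlapped across mice. In icaf the log2 fold change was -0.69 (SE 0.19, adjusted p = 0.0173 by limma), and the call was lost without icaf of mouse 27 or of mouse 30. Foxo1 stood at 10.3, 8.42 and 13.2 CPM in m2cafpos, below the 16.9 to 29.5 CPM of all other libraries. It was lower in m2cafpos than in m2cafneg by a log2 fold change of -1.06 (SE 0.21, adjusted p = 0.00498), -0.79 after scaling. Its difference of 0.60 in vcaf passed the test on deposited CPM but not after scaling, where it was 0.20. Both Foxo1 calls were lost with the epithelial sum as a term. Foxo4 had means of 3.36 CPM in icaf, 3.72 in m2cafneg, 3.82 in m2cafpos and 5.72 in vcaf. On deposited CPM it was higher in vcaf than in each other population, and none of these calls was kept after scaling.

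Of 22 FOXO target genes, 14 were higher and 1 lower in vcaf (10 and 2 after scaling), and 10 were lower in m2cafpos against m2cafneg (9 lower and 1 higher after scaling). The shares of all genes were 53.3% higher and 14.2% lower in vcaf (23.6% and 24.6% after scaling). In m2cafpos 22.6% of all genes were lower (8.29% lower and 8.79% higher after scaling). With the epithelial sum as a term, 9 targets were higher and 1 lower in vcaf (23.6% and 8.49% of all genes). With it 2 were lower in m2cafpos (1.16% of all genes). In icaf 2 were higher and 7 lower (12.1% and 14.2% of all genes), or 0 and 4 with that term (7.43% and 8.07%). Trib1, a pseudokinase, was higher in vcaf by 1.41 and lower in m2cafpos by 1.74 on the log2 scale. Cited2, a co-regulator of transcription, was higher in vcaf by 2.10. In icaf the strongest were Bcl2l11, a death-promoting BCL2 relative, with a log2 fold change of -2.03, and Sesn3, a stress-response gene, with -1.26.

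The FoxP members are repressors that pair with one another. Foxp2 had 835 reads in icaf, 397 in m2cafneg and 556 in m2cafpos, the populations with Pdgfra RNA, and 4 in vcaf. It stood at 4.81, 5.29 and 6.20 CPM in icaf, at 2.55, 3.10 and 2.70 in m2cafneg, at 3.23, 3.13 and 4.74 in m2cafpos and at 0, 0 and 0.0784 in vcaf. Its log2 fold change in vcaf was -2.23 (SE 0.14, adjusted p = 6.64e-08 by limma), -2.32 after scaling, and in icaf it was 0.61 (SE 0.15, adjusted p = 0.00991).

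Foxp1 was abundant everywhere, at 61.2 to 117 CPM. It was the one member called higher in m2cafpos than in m2cafneg, at 112, 83.5 and 117 CPM against 73.0, 64.8 and 75.0 (log2 fold change 0.53, SE 0.17, adjusted p = 0.0358), 0.82 after scaling. The call was lost without any 1 of the m2cafneg libraries, or m2cafpos of mouse 27 or 31. Foxp4 stood at 3.97, 7.21 and 4.77 CPM in icaf, at 6.99 to 13.5 CPM in the m2caf populations and at 20.4, 24.6 and 11.4 in vcaf. Its log2 fold change was 1.0 in vcaf (SE 0.23, adjusted p = 0.00234), 0.62 after scaling, and -0.92 in icaf (adjusted p = 0.0157), a call lost without icaf of mouse 27 or 31. Both calls were lost with the epithelial sum as a term, in vcaf at 0.89 (adjusted p = 0.108). Foxp3, the factor of regulatory T cells, was read at 0.902 CPM in vcaf of mouse 31 and at or below 0.0927 CPM elsewhere.

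The broadly expressed forkheads differed little. Foxn3, a cell-cycle checkpoint factor, stood at 63.2 to 122 CPM, and its log2 fold change of -0.35 in vcaf (adjusted p = 0.0418) was -0.76 after scaling. The call on deposited CPM was lost without any 1 of 8 of the 12 libraries. Foxk1 and Foxn2 were called higher in vcaf on deposited CPM, by 0.49 and 0.39, and after scaling the fold changes were 0.09 and -0.003, neither past the test. Foxj3 had no pair of populations past the test.

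Foxi1 is known from ion-transporting epithelial cells rather than from stroma. It stood at 8.57, 10.6 and 48.6 CPM in icaf, at 76.9, 46.2 and 148 in m2cafneg, at 15.2, 4.99 and 41.4 in m2cafpos and at 33.9, 68.6 and 197 in vcaf. The library of mouse 31 was highest in each population. The populations overlapped, except that all m2cafpos libraries lay below all m2cafneg libraries. Its log2 fold change was 1.46 in vcaf (SE 0.66, adjusted p = 0.0668 by limma), 1.05 after scaling, neither past the test. These models left out that the populations share mice. With the mouse as a block, Foxi1 was called higher in vcaf, and lower in icaf than in the m2caf populations. In m2cafpos against m2cafneg its log2 fold change without the block was -2.35 (SE 0.81, adjusted p = 0.0495 by limma), -2.08 and no longer past the test after scaling. That call was also lost without any 1 of icaf of mouse 27 or 30, m2cafneg of mouse 27 or 31, m2cafpos of mouse 27 or 30 or vcaf of mouse 30. Foxa1, a factor of luminal mammary epithelium, was at or below 0.333 CPM in every library.

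**Figure D2:**
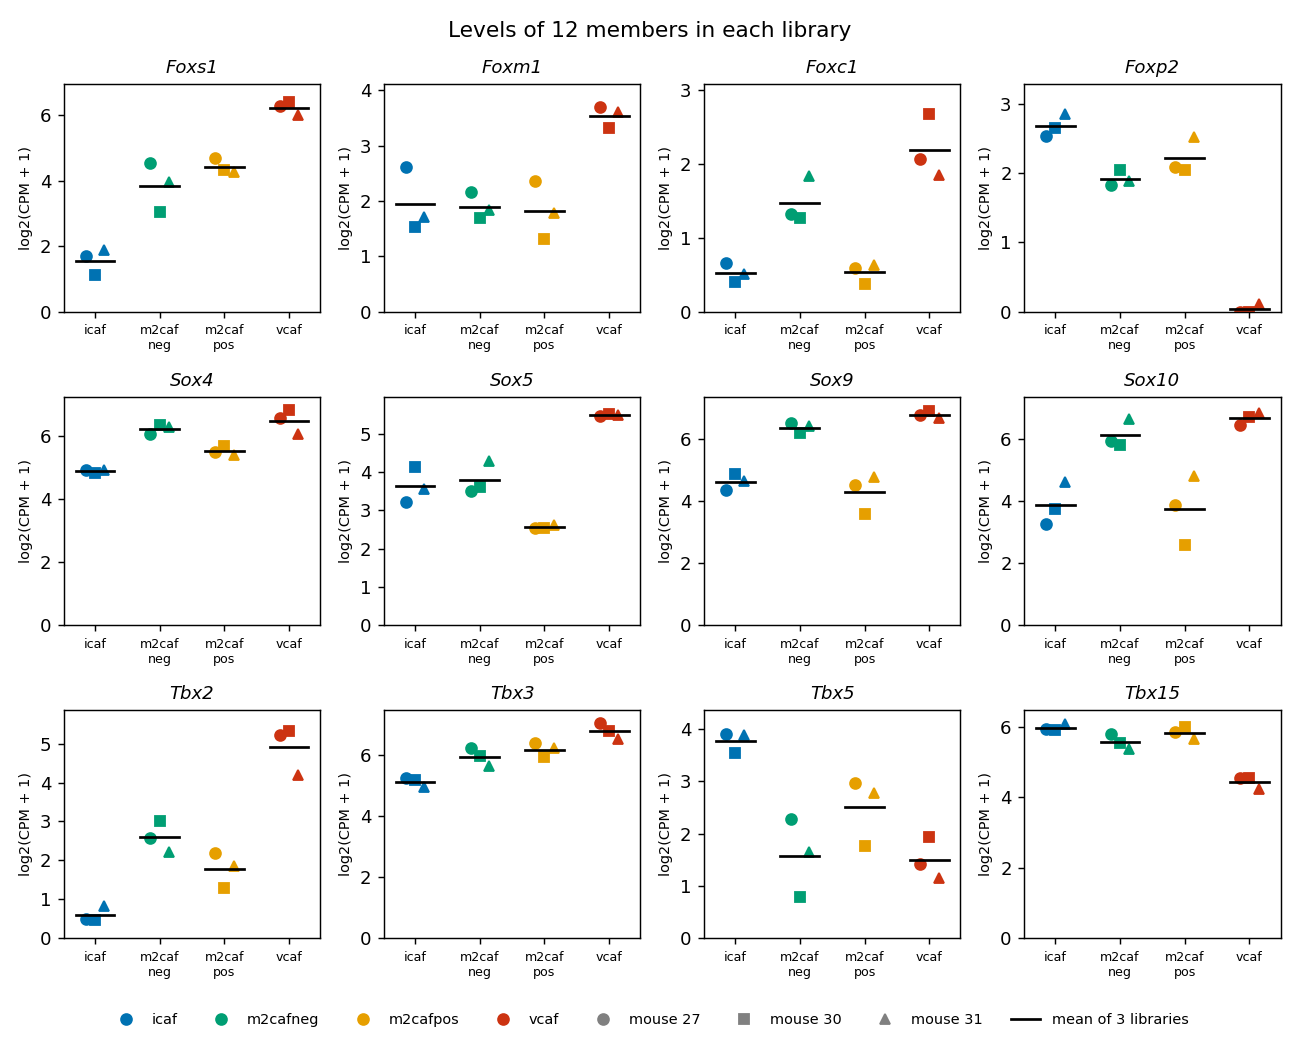
Log2(CPM + 1) (y axis) of 12 members in each library, by population (x axis); the marker shape gives the mouse and the bar the mean of 3 libraries. Foxs1, Foxm1, Sox5 and Tbx2 were highest in vcaf, Tbx5 in icaf, and Foxp2 was near 0 in vcaf, while Sox9 and Sox10 stood high in both m2cafneg and vcaf.

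The SoxE members act in cartilage, neural crest, glia and glandular epithelium, and in these samples they were high in both m2cafneg and vcaf. Sox10 stood at 8.47, 12.5 and 23.5 CPM in icaf, at 60.6, 55.5 and 98.2 in m2cafneg, at 13.6, 4.99 and 26.9 in m2cafpos and at 87.1, 103 and 114 in vcaf. No icaf or m2cafpos library reached any m2cafneg or vcaf library. Its log2 fold change was 2.08 in vcaf (SE 0.38, adjusted p = 0.000506 by limma), 1.68 after scaling, and -2.38 in m2cafpos against m2cafneg (SE 0.47, adjusted p = 0.00504), -2.11 after scaling.

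Sox9 stood at 19.5, 27.8 and 23.9 CPM in icaf, at 89.5, 71.8 and 83.4 in m2cafneg, at 21.5, 10.9 and 26.3 in m2cafpos and at 107, 117 and 101 in vcaf. The same split held, with icaf and m2cafpos low in every mouse. For Sox9 the log2 fold change was 1.69 in vcaf (SE 0.20, adjusted p = 1.83e-05), 1.28 after scaling, and -2.08 in m2cafpos against m2cafneg (SE 0.24, adjusted p = 0.000533), -1.80 after scaling. In icaf it was -0.71 (adjusted p = 0.0274), a call lost without icaf of mouse 27 or 31, m2cafneg of mouse 27 or m2cafpos of mouse 27.

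The epithelial marker sum moved with these genes. For each member with a mean of at least 1 CPM in some population (40 members), CPM was divided by the epithelial sum in each library, and a member was set beside epithelial RNA where the highest ratio over the 12 libraries was at most 4 times the lowest. The sum itself spanned 25.3-fold. Sox10 kept the narrowest ratio, 5.75 to 8.73 CPM per 1000 CPM of the sum, a 1.52-fold range. Sox9 (3.27-fold), Foxc1 (3.82-fold) and Foxi1 (3.99-fold) also met the rule, and the other 36 did not. By the same rule Sox9 (2.93-fold) and Foxc1 (3.14-fold) kept a narrower ratio to the macrophage sum than to the epithelial sum, and no other member met it there. Sox10 varied 4.86-fold against the macrophage sum. On the log2 scale, deviations from the population means correlated with those of the epithelial sum at r = 0.962 for Sox10 and 0.961 for Foxi1. For Sox9 r was 0.711, and for Foxc1 0.209. Among members outside the rule the highest r was 0.839, for Foxo1, whose ratio varied 8.59-fold.

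Other genes with a narrow ratio were Col9a1 and Col9a3, collagen IX chains known as SOX9 targets in cartilage, at 1.91-fold and 1.94-fold, looked at after their values were seen. Among 13 Schwann cell and nerve markers, Cdh19 ran as Sox10 did, at 4.38 to 10.4 CPM in vcaf, 1.73 to 8.89 in m2cafneg and at or below 0.95 elsewhere. Erbb3 did so too, at 30.7 to 58.2, 17.8 to 35.6 and at or below 9.70 CPM. Gap43, Ngfr and Pmp22 had their highest mean in icaf, S100b and Egr2 in m2cafpos, and the rest in vcaf. The sum of the 13 was 671 to 731 CPM in vcaf and 702 to 1072 in the other populations. Most of it came from Pmp22 (means of 238 to 737 CPM) and Egr2 (130 to 469 CPM). Sox10 varied 29.5-fold against that sum. The 12 members that kept within 4-fold of that sum included Foxj3, Foxk1, Tbx18 and Tbx15, the last of them lower in vcaf.

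With the log2 epithelial sum as a term in the model, the vcaf and m2cafpos calls of Sox10 were lost (log2 fold changes of 0.31 and -0.27). Foxi1 turned to -1.63 in vcaf and 1.34 in m2cafpos, and Sox9 kept its call in vcaf at 1.03 but not in m2cafpos at -1.30. Foxc1 also kept its call in vcaf but not in m2cafpos. The sum differed between the same populations, so population and epithelial RNA cannot be told apart by this model.

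**Figure D3:**
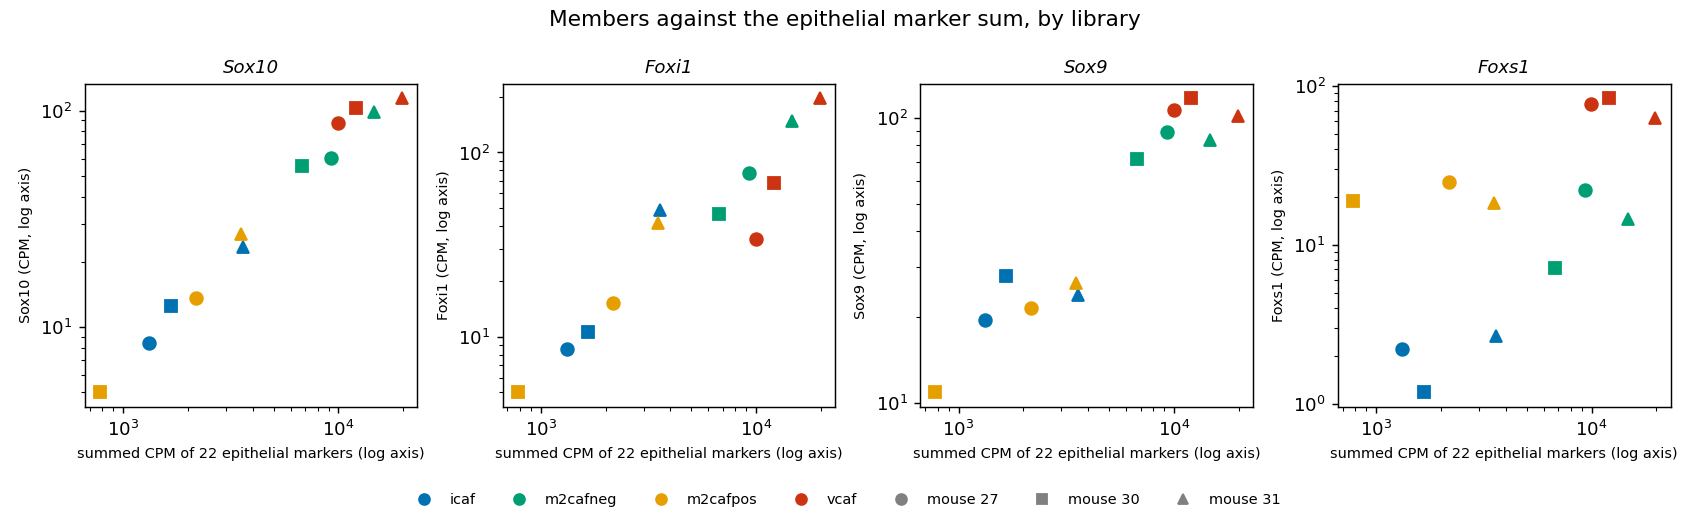
CPM of Sox10, Foxi1, Sox9 and Foxs1 (y axes, log scale) against the summed CPM of 22 epithelial markers (x axis, log scale) in the 12 libraries, coloured by population with the mouse as marker shape. Sox10 rose along the sum from 4.99 to 114 CPM with a ratio that varied 1.52-fold, while Foxs1 varied 34.1-fold against the sum.

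The SoxD members are co-factors of SOX9 without an activation domain of their own. Sox5 (chr6:143828425-144781977), whose upstream stretch is printed above, stood at 8.41, 16.7 and 10.8 CPM in icaf, at 10.4, 11.3 and 18.6 in m2cafneg, at 4.79, 4.82 and 5.15 in m2cafpos and at 43.4, 45.2 and 44.1 in vcaf. The vcaf libraries were highest and the m2cafpos libraries lowest, each without overlap, and icaf and m2cafneg overlapped. The log2 fold change was 2.16 in vcaf (SE 0.19, adjusted p = 1.4e-06 by limma), 1.76 after scaling, and -1.24 in m2cafpos against m2cafneg (SE 0.23, adjusted p = 0.00416), -0.99 after scaling. Sox5 varied 8.98-fold against the epithelial sum and kept its vcaf call with that sum in the model, at 1.93, but not its m2cafpos call, at -0.97.

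Of 14 SOX9 cartilage target genes 10 passed the filter, and in vcaf 4 were higher and 3 lower, before and after scaling, where 53.3% and 14.2% of all genes were called (23.6% and 24.6% after scaling). The counts were 3 higher and 1 lower with the epithelial sum as a term (23.6% and 8.49% of all genes). The higher ones included Col2a1, Col9a2 and Col9a3, by 1.07, 2.43 and 2.23, and these 3 were lower in m2cafpos than in m2cafneg by 1.55, 2.52 and 2.39 on the log2 scale. In that comparison 5 of the 10 were lower and 0 higher (22.6% and 3.51% of all genes). After scaling 5 were lower and Col11a1, Col27a1 and Matn4 were higher, by 1.62, 0.63 and 0.69 (8.29% and 8.79% of all genes). With the epithelial sum as a term the one call was Col2a1, lower at -1.45 (1.16% of all genes lower). Col2a1, the main cartilage collagen, did not exceed 2.86 CPM in any library. In icaf 1 was higher and 4 lower (12.1% and 14.2% of all genes), among them Col11a1 at -3.39 and Col27a1 at -1.37.

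The SoxC members act in progenitor and mesenchymal cells. Sox4 stood at 29.1, 27.2 and 29.1 CPM in icaf, at 66.7, 80.0 and 77.7 in m2cafneg, at 43.8, 50.6 and 40.8 in m2cafpos and at 93.7, 114 and 66.0 in vcaf. Its icaf libraries lay below all others, m2cafpos came next, and m2cafneg and vcaf overlapped. The log2 fold change was -1.0 in icaf (SE 0.14, adjusted p = 0.000269 by limma), and 0.94 in vcaf (SE 0.14, adjusted p = 9e-05), 0.53 after scaling. The m2cafpos difference from m2cafneg was -0.72 and no longer past the test after scaling, at -0.43. Sox4 varied 19.4-fold against the epithelial sum. Sox12 was higher in vcaf by 0.89 (0.55 after scaling), at a mean of 5.90 CPM there. Sox11, which passed the filter through vcaf alone, had a mean of 2.35 CPM there and a log2 fold change of 1.11 (0.87 after scaling).

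The SoxF members Sox7, Sox17 and Sox18 are endothelial regulators. Sox18 stood at 1.77, 0.983 and 4.20 CPM in icaf, at 2.44, 5.17 and 12.8 in m2cafneg, at 2.58, 2.02 and 3.21 in m2cafpos and at 13.7, 11.3 and 17.1 in vcaf. Sox7 stood at 0.513, 1.22 and 2.32 CPM in icaf, at 0.871, 6.16 and 11.3 in m2cafneg, at 0.181, 1.22 and 0.752 in m2cafpos and at 8.15, 6.78 and 7.88 in vcaf. Sox17 was at or below 0.364 CPM in icaf and m2cafpos, at 0.457, 1.53 and 4.86 in m2cafneg and at 3.04, 5.97 and 4.23 in vcaf.

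For all 3, m2cafneg of mouse 31 reached or passed the range of vcaf. Their log2 fold changes in vcaf were 1.83, 1.65 and 1.72 for Sox18, Sox7 and Sox17 (adjusted p = 0.000847, 0.00554 and 0.000511 by limma), 1.47, 1.34 and 1.46 after scaling. Against m2cafneg alone none of the 3 passed the test in vcaf (adjusted p = 0.0565, 0.356 and 0.0773). Sox7 and Sox17 were called lower in m2cafpos than in m2cafneg, by 1.72 and 1.23 on the log2 scale. Both calls were lost after scaling and without m2cafneg of mouse 30 or 31 or any 1 m2cafpos library. With the epithelial sum in the model all 3 vcaf calls were lost, at 0.82, 1.28 and 1.13.

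Of 20 endothelial markers, all but Tek and Erg had their highest mean in vcaf, although CD31+ cells were gated out. Tek ran the other way, with means of 165 CPM in icaf, 27.0 in m2cafneg, 12.8 in m2cafpos and 12.6 in vcaf. Erg had means of 0.316, 2.16, 2.12 and 1.90 CPM in the same order. Kdr was higher in icaf (mean 13.4 CPM) than in m2cafneg (11.1 CPM). Cdh5, the cadherin of endothelial junctions, stood at 7.40, 12.6 and 46.9 CPM in m2cafneg, the same order of mice as for the 3 SoxF members, and at 27.5, 26.0 and 53.5 in vcaf, 1.86, 3.46 and 10.5 in icaf and 1.54, 3.99 and 5.01 in m2cafpos. The sum of 20 endothelial markers was 1449 to 1735 CPM in vcaf, 421 to 883 in m2cafneg, 313 to 476 in icaf and 227 to 314 in m2cafpos. It includes Esam and Eng, which mural cells also express and which gave 542 to 579 and 302 to 343 CPM in vcaf. None of the 20 was at 0 throughout a population, and the part of endothelial RNA in the SoxF differences was not tested. By the ratio rule used for epithelium, Sox5 (2.36-fold) and Foxo1 (3.51-fold) were the 2 members that kept within 4-fold of the endothelial sum, and the SoxF members did not.

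**Figure D4:**
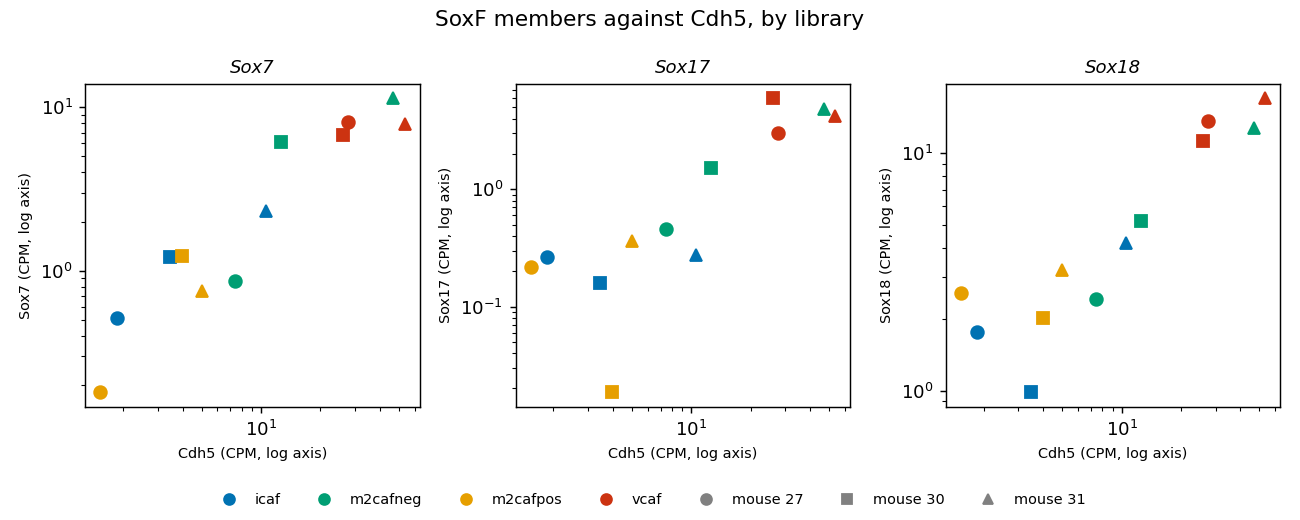
CPM of Sox7, Sox17 and Sox18 (y axes, log scale) against CPM of Cdh5 (x axis, log scale) in the 12 libraries, coloured by population with the mouse as marker shape. The m2cafneg library of mouse 31 (Cdh5 at 46.9 CPM) lies among the vcaf libraries for Sox17 and Sox18 and above them for Sox7.

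Sox2, a stem cell factor, had 4 reads in all, and Sox3 had none. Sox6, Sox13, Sox14 and Sox8 were low or broad. They peaked at 4.07, 16.6, 2.90 and 5.65 CPM and were higher in vcaf by 1.34, 0.72, 1.10 and 0.71 on the log2 scale. After scaling those of Sox13 and Sox8 no longer passed the test, at 0.34 and 0.41.

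T-box members pattern limbs, heart and mesenchyme, and here they split by gate. Tbx2, a repressor of cell-cycle inhibitor genes (chr11:85832551-85841948), stood at 0.418, 0.393 and 0.772 CPM in icaf, at 4.92, 7.11 and 3.63 in m2cafneg, at 3.56, 1.43 and 2.62 in m2cafpos and at 36.3, 38.9 and 17.4 in vcaf. The 4 populations did not overlap. Its log2 fold change was 3.26 in vcaf (SE 0.26, adjusted p = 6.29e-07 by limma), 2.89 after scaling, and -1.58 in icaf (SE 0.28, adjusted p = 0.00118). The difference between m2cafpos and m2cafneg was -0.82 (SE 0.32) and did not pass the test (adjusted p = 0.0779). Its neighbour Tbx4, 44.5 kb away, was at or below 0.380 CPM in every library.

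Tbx3, the closest relative of Tbx2 and a regulator of mammary development, was more even. It stood at 37.1, 35.2 and 30.3 CPM in icaf, at 74.7, 62.4 and 48.6 in m2cafneg, at 82.7, 59.8 and 75.0 in m2cafpos and at 133, 111 and 92.4 in vcaf. The icaf libraries were lowest and the vcaf libraries highest, and m2cafneg and m2cafpos overlapped. For Tbx3 the log2 fold change was 1.05 in vcaf (SE 0.15, adjusted p = 6.91e-05), 0.64 after scaling, and -0.94 in icaf (SE 0.15, adjusted p = 0.000728).

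Tbx5, a factor of heart and forelimb, lies 148 kb from Tbx3 and ran the other way. It stood at 13.9, 10.6 and 13.7 CPM in icaf, at 3.83, 0.720 and 2.15 in m2cafneg, at 6.86, 2.39 and 5.81 in m2cafpos and at 1.66, 2.81 and 1.22 in vcaf. Every icaf library lay above every other, and the other 3 populations overlapped. For Tbx5 the log2 fold change was 1.74 in icaf (SE 0.33, adjusted p = 0.00203 by limma) and -1.12 in vcaf (SE 0.31, adjusted p = 0.00729), -1.40 after scaling.

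Tbx15, known from skeletal and dermal mesenchyme, was higher in the 3 populations with Pdgfra RNA. It stood at 60.8, 59.0 and 66.5 CPM in icaf, at 54.3, 45.9 and 40.2 in m2cafneg, at 56.7, 63.3 and 49.3 in m2cafpos and at 22.3, 22.5 and 17.9 in vcaf. All vcaf libraries lay below all others, which overlapped. The log2 fold change in vcaf was -1.35 (SE 0.11, adjusted p = 8.43e-07), -1.75 after scaling.

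Tbx20, a heart factor, had 556 reads in the 3 vcaf libraries (5.43, 2.14 and 3.31 CPM) and 0 in the other 9. Over pooled reads it was at least 538-fold higher in vcaf, taking a count of 0 to allow up to 3 reads over the 9 libraries. Such floors cover counting error only. Tbx18, known as a mural cell gene, stood at 9.69 ± 5.17 CPM in vcaf and at 14.0 ± 2.26 in m2cafneg, 10.2 ± 2.51 in icaf and 9.67 ± 3.53 in m2cafpos (SD, n = 3 for each), and no pair of populations passed the test. Tbx21, the T-box factor of T helper and natural killer cells, was at or below 0.275 CPM in every library. The relative Mga, outside the name rule, was higher in vcaf by 0.54, a call lost after scaling.

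Fewer members separated icaf from the m2caf populations. The test called 3 of 38 higher and 10 lower, where it called 12.1% and 14.2% of all genes, and the counts were also 3 and 10 after scaling (12.4% and 14.8% of all genes). The members higher in icaf were Tbx5, Foxp2 and Sox13, the last by 0.66 (SE 0.16, adjusted p = 0.00914). Those lower were Foxs1, Tbx2, Sox8, Sox4, Tbx3, Foxp4, Sox9, Foxo3, Tbx6 and Foxn3, from -2.57 for Foxs1 to -0.45 for Foxn3. Without icaf of mouse 27, 5 were called lower. With the epithelial sum as a term, 5 were called lower as well (Foxs1, Tbx2, Sox8, Sox4 and Tbx3) and 4 higher, against 8.07% and 7.43% of all genes. The median log2 fold change was -0.34 over members and -0.01 over all genes.

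Between the NCAM gates the calls ran almost all one way. In m2cafpos against m2cafneg 1 of 38 members was higher and 13 lower, where the test called 3.51% of all genes higher and 22.6% lower. After scaling 2 were higher (Foxp1 and Tbx15) and 7 lower, against 8.79% and 8.29% of all genes. Among the 13, 10 were Sox members, 5 after scaling (Sox5, Sox6, Sox9, Sox10 and Sox14), and the others were Foxc1, Foxi1 and Foxo1. The epithelial sum was 10238 CPM in m2cafneg and 2155 CPM in m2cafpos. With that sum as a term, limma called 0 members in either direction, with 4 higher and 5 lower at an unadjusted p under 0.05. Over all genes the model gave 74 higher and 179 lower calls with that term (0.479% and 1.16%), and 542 and 3499 without it. Without m2cafpos of mouse 30, 7 were lower, and without m2cafpos of mouse 27, 8.

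**Figure D5:**
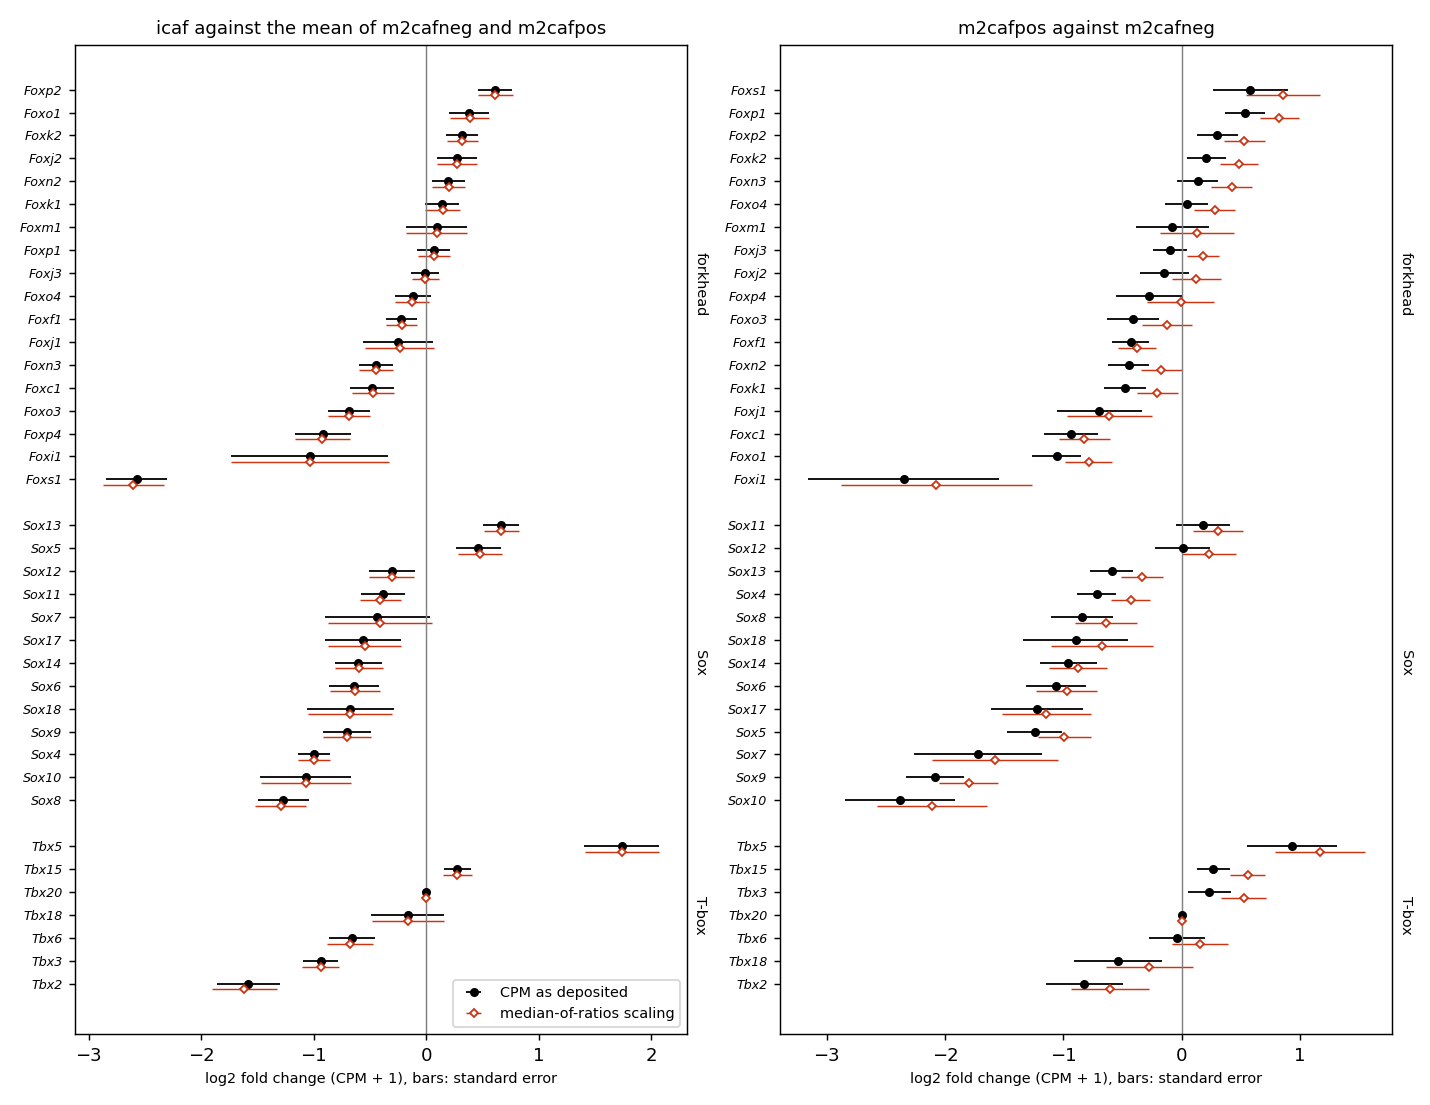
Log2 fold change on the log2(CPM + 1) scale (x axes) of the 38 members in icaf relative to the average of both m2caf populations (left) and in m2cafpos against m2cafneg (right). Filled circles are the CPM as deposited, open diamonds the values after median-of-ratios scaling, and bars the standard error. Foxs1 and Tbx5 mark the ends on the left, and Sox10 and Foxi1 lie lowest on the right.

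Over all 6 pairs of populations, 116 of 228 combinations of member and pair passed the test. In vcaf 25 members were higher and 3 lower than in icaf (46.1% and 13.9% of all genes), 28 and 4 against m2cafpos (55.5% and 12.4%), and 13 and 2 against m2cafneg (26.6% and 11.3%). In icaf 3 were higher and 14 lower than in m2cafneg (8.77% and 20.9%), and 4 higher and 6 lower than in m2cafpos (15.0% and 8.86%). The comparisons share libraries.

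Genes around these factors were counted from fixed lists. Of 12 Hedgehog pathway genes tested, a pathway that acts on Foxf1 and Foxl1 in gut mesenchyme, 8 were lower and 2 higher in vcaf (9 and 1 after scaling), with a median of -0.84. The test called 14.2% of all genes lower and 53.3% higher (24.6% and 23.6% after scaling). Of the 12, 7 were lower and 0 higher with the epithelial sum as a term (8.49% and 23.6% of all genes). Cdon, a Hedgehog co-receptor, was lower by 2.52 and Hhip, a Hedgehog-binding inhibitor, by 1.87, while Ptch1, the receptor, had its highest mean in vcaf at 9.39 ± 0.778 CPM. In icaf 4 were higher, among them Cdon by 1.44, and 1 lower (12.1% and 14.2% of all genes). In m2cafpos against m2cafneg 3 were lower, led by Hhip at -2.91, and 2 after scaling (22.6% and 8.29% of all genes). Of 12 other mesenchymal and mural transcription factors tested, 10 were higher and 1 lower in vcaf (7 and 2 after scaling, 7 and 1 with that term), to be read against the same shares. Mef2c stood at 228 ± 43.3 CPM in vcaf and at 23.6 to 28.4 in the other populations, and Myocd, the smooth muscle co-activator, at 7.92 ± 3.18 and at or below a mean of 0.116 CPM. In icaf 5 were higher and 2 lower (12.1% and 14.2% of all genes), among them Ebf2 at 1.64 and Heyl at -3.74. In m2cafpos against m2cafneg 2 were lower (22.6% of all genes), Meox2 at -0.86 and Hey1 at -1.88, neither kept after scaling (8.29%).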

How the data were processed

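RNA was sequenced from 12 libraries, 4 sorted populations from each of 3 mice. The authors deposited CPM values, and bcl2fastq, DRAGEN and mm10 appear in the submitters' processing notes. For the counting tool, annotation, strand handling and library kit, nothing was given in the sources used here, so reads shared with overlapping genes could not be judged. The title 27_vacf was taken to mean vcaf, mouse 27. The deposited CPM table had 55774 lines, 287 of them repeats of a gene with the same values. All values were whole multiples of 1 read within 0.001 reads, which gave whole read counts.

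The 15456 genes that reached 1 CPM in 3 or more libraries were tested by limma 3.58.1 (R 4.3.3) on log2(CPM + 1), with a trend, 4 groups and two-sided tests. There were 8 residual degrees of freedom. Adjusted p is Benjamini-Hochberg over all genes tested in each comparison, with a threshold of 0.05. Steps were tested on simulated data. Alternatives were a pseudocount of 0.25, other filters, median-of-ratios scaling, edgeR 4.0.16 and DESeq2 1.42.0 on whole reads, the mouse as a block, the log2 epithelial sum as a covariate, and leaving out each library. Positions are from GENCODE M21 on GRCm38, where all 76 members matched.

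Members were named with values when they had a mean of at least 5 CPM with a call of at least 1 in log2 fold change, a mean of at least 20 CPM, or were 1 of 27 always named. Others are given in counts or ranges, and Foxo4, Sox6, Sox8, Sox11 to Sox14, Tbx4, Tbx6 and members with no reads were added after their values were seen. Of each related list, the tested genes with the lowest adjusted p, at most 4, were named, and Ptch1 was added in the same way. Members and lists were chosen with earlier results of these data known. Mouse numbers name animals: deviations from population means correlated at a median r of 0.293 (0.0843 to 0.452) over 18 pairs of libraries of the same mouse and -0.149 over 36 pairs of different mice. Values of some single genes of the marker and pathway lists are not reported here.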

Additional observations from a re-analysis of the deposited data

How the results depend on the processing

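Members called higher in vcaf numbered 27 in the reported setting, 17 with a filter of 5 CPM and 13 with the epithelial covariate. Those lower in icaf numbered 10, or 6 with no filter and 5 with the covariate, and 5 to 12 with a library left out. Those lower in m2cafpos against m2cafneg numbered 13, or 6 with no filter, 8 with a filter of 5 CPM, 7 after median-of-ratios scaling, 7 by edgeR, 8 by DESeq2 and 0 with the covariate (5 at an unadjusted p under 0.05 by limma), and 7 to 14 with a library left out. Those higher numbered 1, or 0 with no filter (2 at an unadjusted p under 0.05 by limma), 2 after scaling, 2 by edgeR, 4 by DESeq2 and 0 with the covariate (4 at an unadjusted p under 0.05), and 0 to 2 with a library left out. The pairs that passed the test numbered 116, or 74 with a filter of 5 CPM and 59 with the covariate. With the mouse as a replicate block, the pairing gave 2 higher (Foxp1 and Tbx5) and 15 lower in m2cafpos against m2cafneg. In vcaf it gave 29 higher, adding Foxi1 and Foxo3, and 4 lower. In icaf it gave 4 higher, adding Foxo1, and 14 lower, adding Foxi1, Sox6, Sox10 and Sox14. No call of a member was lost with the block. For the block, the other filters, edgeR, DESeq2 and the left-out libraries, calls over all genes are not given here. The member counts in those settings therefore cannot be set against all genes. Reversals were Foxi1 at -1.63 in vcaf and 1.34 in m2cafpos and Foxo1 at -0.0117 in vcaf with the covariate, and Foxn2 in vcaf at -0.00287 after scaling and -0.00191 by DESeq2. Apart from the covariate and filter, whose construction changes the genes tested or the group term, the cause was not tested. Of 42 calls of named members, 18 were kept in every alternative that gave a value, 13 of 22 in vcaf, 5 of 10 in icaf and 0 of 10 in m2cafpos. With 3 mice and fold changes compressed near 1 CPM, small differences of low members were not detectable.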
